A study of Mus musculus with 48 samples.

Results

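The response of a Copaxone-raised T cell line to ACN, a copolymer that it was not raised against, was measured in 8 wells with ACN and 7 wells with medium alone, 15 of the 48 samples in the series. Wells were taken by their titles, and all probes of the array were compared as ACN minus media-only control. ACN, the acetonitrile nonconforming copolymer, is a glatiramoid, that is, a synthetic amino acid copolymer related to glatiramer acetate (GA) but not equivalent to it. It came from 1 lot. ACN was present at 20 μg/mL for 24 h, and media-only wells received no copolymer. Every well held 0.5 mL of a Th2-polarized line of CD4+ T cells and 0.5 mL of naive Balb/c splenocytes as antigen-presenting cells (APCs), with 10 splenocytes to every 2 T cells. The T cells came from female Balb/c mice of 8 to 12 weeks that had been immunized with Copaxone, a brand of GA, and had been restimulated with Copaxone for 13 rounds as a nonclonal line. Copaxone (17 wells, 9 lots) and Glatopa, a generic GA (16 wells, 4 lots), were tested at the same dose and time and are used here only as direct comparators. All wells belonged to 1 experiment on 1 T cell line, so p-values measure the spread between wells and not between animals or lines.

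GA and its relatives are taken up by APCs and shown to CD4+ T cells on MHC class II molecules. A T cell that recognizes such a peptide mixture divides and secretes cytokines, and a Th2 cell is known for IL-4, IL-5 and IL-13. In textbook accounts IL-4 and IL-13 act in turn through STAT6 on macrophages, which take up genes of alternative activation, and IL-4 does so on B cells as well, whereas IL-2 and related cytokines act through STAT5 on the T cells themselves.

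Each array gave 39430 probes after spots of the same probe were averaged, on a log2 scale that the authors had quantile-normalized, with array medians between 4.95 and 5.02. Values are therefore relative to the other probes of the same array, and probes near the array median are dim, so that their differences understate the change. The labels give CD4+ T cells as the cell type, but each lysate also held the splenocytes. T cell markers were on average at 7.63 to 8.12 in ACN wells and 8.08 to 8.36 in media-only wells, and 0 rose and 3 fell of 8. Cd4 itself lay close to the array median, at 5.05 to 5.22 in ACN wells and 5.08 to 5.29 in media-only wells. B cell markers, at 8.26 to 8.92 with ACN and 8.15 to 8.63 in medium, were well above the array median apart from Pax5. Fewer cells of a type and less RNA per cell cannot be told apart in such a mixed lysate. ACN replicate 2 and media-only replicate 6 stood apart from their groups, with median correlations to their own group of 0.9636 and 0.9638 against 0.9675 to 0.9785 for the other wells. Both were kept. Without these 2 arrays 1301 probes were higher and 1397 lower with ACN than in medium, against 1470 and 1323 with them.

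With ACN, 1470 probes were higher and 1323 lower than in medium, 3.73% and 3.36% of all probes tested (limma, Benjamini-Hochberg adjusted p under 0.05), 7.08% in all. At an unadjusted p under 0.05, 6945 probes differed. Counted with 1 probe per gene, 1010 of 22485 genes were higher and 949 lower, or 4.49% and 4.22%. Gene lists were counted on the same 1 probe per gene, so these are the shares beside which their counts stand. The lists were chosen with earlier results of these data known, so a count above these shares is a description and not a test. Most changes were small. The median size among called probes was 1.41-fold, 102 probes rose and 77 fell at least 2-fold (0.259% and 0.195% of all probes), and 17 rose and 2 fell at least 4-fold (0.0431% and 0.00507%). All 8 ACN wells lay above every media-only well in 468 probes called higher (1.19% of all probes) and below every media-only well in 426 called lower (1.08%). The median difference over all probes was -0.0047 on the log2 scale.

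**Figure D1:**
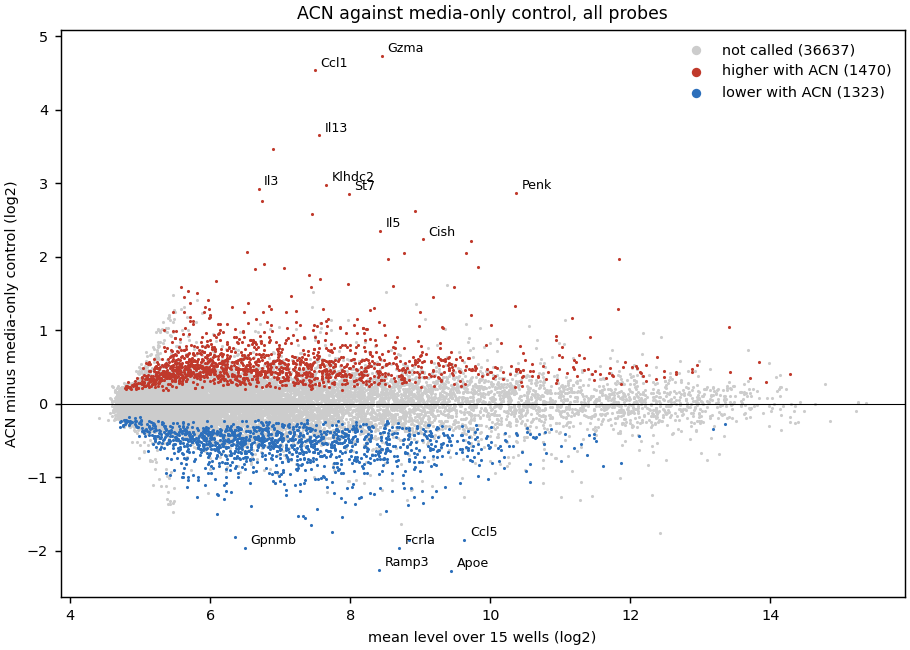
Difference between ACN and media-only wells (log2, y axis) against the mean level over the 15 wells (log2, x axis), with 1 point per probe and 39430 probes. Red points are the 1470 probes called higher and blue points the 1323 called lower at an adjusted p under 0.05, grey points were not called, and genes with large changes are named; the largest rises, Gzma and Ccl1, reach 4.73 and 4.54 and the largest fall, Apoe, -2.27.

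Cytokines that define Th2 cells were among the largest rises with ACN. Of 9 measured members of that list 6 rose and 0 fell, where 4.49% and 4.22% of all genes did so, with a median log2 difference of 0.62. Il13, which drives mucus secretion and alternative activation of macrophages, had log2 values of 8.49, 9.20 and 9.96 (lowest, median and highest of 8) in ACN wells and 5.30, 5.62 and 5.82 (of 7) in media-only wells. The 2 groups were far apart, and the rise was 12.6-fold (log2 difference 3.65, SE 0.18, adjusted p = 1.17e-09 from limma). Il5, the growth factor of eosinophils, lay at 9.25, 9.37 and 10.06 with ACN and 7.03, 7.17 and 7.37 in medium, a 5.11-fold rise (SE of the log2 difference 0.12, adjusted p = 9.97e-10). Il4, the cytokine that sustains Th2 differentiation, was tightly grouped, at 7.36, 7.42 and 7.68 with ACN and 5.29, 5.42 and 5.63 in medium (4.19-fold, SE 0.07, adjusted p = 1.22e-11). Il3, a growth factor of myeloid cells and basophils that activated T cells secrete, had values of 7.65, 8.03 and 8.47 with ACN and 4.81, 5.15 and 5.61 in medium, 7.61-fold higher (SE 0.14, adjusted p = 8.79e-10). In these 4 genes all 8 ACN wells lay above every media-only well.

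Other cytokines of the list changed less. Il10, which dampens macrophage activation, rose by 0.62 on the log2 scale, with ACN wells at 5.38 to 5.66 and media-only wells at 4.82 to 4.97. Csf2, which encodes GM-CSF, rose by 0.27 (adjusted p = 0.00185), from dim values, at 5.14 to 5.38 with ACN and 4.93 to 5.01 in medium, and the groups did not overlap. Il9, Il31 and Il24 did not pass the test, with log2 differences of 0.23, 0.08 and -0.08.

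Among 16 cytokines of Th1, Th17 and other T cells, 2 rose and 1 fell, with a median of 0.04. Ifng, the defining cytokine of Th1 cells, rose by 0.54 (SE 0.15, adjusted p = 0.0322 from limma). Its ACN wells ran from 5.04 to 6.04 with a median of 5.55 and its media-only wells from 4.60 to 5.34 with a median of 5.05, and 6 of 8 ACN wells lay above every media-only well. Its call was lost under 11 of 25 alternatives. Tnfsf8, the CD30 ligand, rose by 0.42. Ltb, which encodes lymphotoxin beta and is expressed by resting lymphocytes, fell to 9.74, 10.11 and 10.27 with ACN, against 10.57, 11.17 and 11.56 in medium, a 2.08-fold fall (adjusted p = 1.07e-04). Il2, Il17a, Il21 and Tnf missed the test, at -0.11, 0.05, -0.01 and 0.17. Fasl stood at 0.98 without passing (adjusted p = 0.571), since 1 ACN well read 10.98 and the median of the ACN wells was 5.01, against 4.88 in media-only wells.

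Granzymes, the proteases of cytotoxic granules, responded unevenly. Gzma, granzyme A, had the largest rise of all genes, at 10.36, 10.63 and 11.02 in ACN wells and 5.30, 6.02 and 6.21 in media-only wells. Its ACN wells lay over 4 log2 units above the highest media-only well, and the rise was 26.6-fold (SE of the log2 difference 0.12, adjusted p = 1.96e-13 from limma). Gzme rose 2.73-fold and Gzmb 1.80-fold (adjusted p = 5.12e-09 and 3.44e-04). The remaining 7 of the 10 measured members missed the test, among them perforin, Prf1, at 0.27, Gzmc at 0.35 and Gzmk at -0.04. Gzme shares sequence with its neighbours Gzmd, Gzmf and Gzmg, so signal from one may reach the probe of another.

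Of 24 chemokine ligands 7 rose and 4 fell. Ccl1, a chemokine of activated Th2 cells that acts on CCR8, had values of 9.44, 9.61 and 9.90 with ACN and 4.87, 4.91 and 5.66 in medium, a 23.2-fold rise (SE 0.11, adjusted p = 1.73e-13 from limma). Media-only wells other than the highest were at the level of dim probes, so this difference may understate the change. Ccl8, which attracts Th2 cells and eosinophils, rose 3.93-fold, Cxcl3, a neutrophil chemokine, 2.46-fold, and Ccl17, which APCs make in response to IL-4, 2.19-fold. Ccl4 and Xcl1, both made by activated T cells, rose 2.04-fold and 1.98-fold. All 8 ACN wells lay above every media-only well in these 6 genes. Ccl5, made by memory T cells, went the other way. It stood at 8.31, 8.82 and 9.02 with ACN and at 10.49, 10.63 and 10.70 in medium, 3.61-fold lower (adjusted p = 1.11e-09). Falls were also found for the platelet chemokines Ppbp and Pf4 (log2 differences of -0.88 and -0.50) and for Cxcl10, which interferons induce (-0.62). Of 15 chemokine receptors 0 rose and 4 fell, the most being Ccr6, at 8.13 to 9.38 in ACN wells and 9.49 to 10.17 in media-only wells (log2 difference -1.13), followed by Ccr2 (-0.62), Cxcr3 (-0.45) and Cxcr5 (-0.38).

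**Figure D2:**
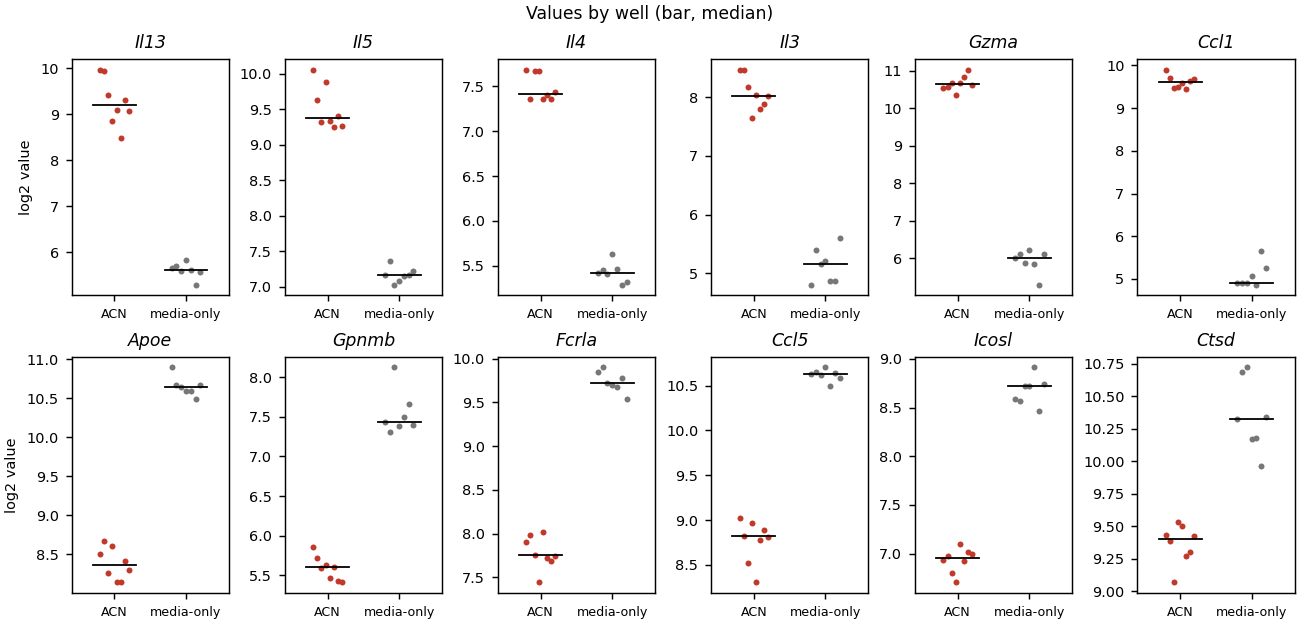
Log2 values of 12 genes by well, with ACN wells (red, n = 8) left of media-only wells (grey, n = 7) in each panel and a bar at the median. The upper row holds genes that rose (Il13, Il5, Il4, Il3, Gzma and Ccl1) and the lower row genes that fell (Apoe, Gpnmb, Fcrla, Ccl5, Icosl and Ctsd); the 2 groups do not overlap in any of the 12 panels.

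Of 16 measured genes in a list of IL-2 and STAT5 feedback genes, some of them feedback inhibitors, 10 rose and 0 fell, with a median of 0.55. Cish, a SOCS family inhibitor, was at 9.81, 10.10 and 10.26 with ACN and 7.75, 7.83 and 7.94 in medium (4.72-fold, SE 0.07, adjusted p = 1.70e-12 from limma). Socs1, which blocks JAK kinases, was at 10.20, 10.64 and 10.92 with ACN and 8.01, 8.62 and 9.02 in medium (4.13-fold, adjusted p = 1.39e-07). Nfil3, a leucine zipper transcription factor of IL-3 and IL-4 responses, had values of 9.47, 10.27 and 10.60 with ACN and 7.21, 7.53 and 7.84 in medium (6.16-fold). The groups were separate in all 3 genes. Smaller rises were found for Socs3 (0.79), Pim1, a survival kinase (0.72), Bcl2, an inhibitor of apoptosis (0.62), the cyclin Ccnd3 (0.58), the IL-2 receptor alpha chain Il2ra (0.56), Bcl6 (0.53) and Socs2 (0.44). The call of Bcl6 was lost under 7 of 25 alternatives. Lta, Osm, Bcl2l1, Tnfrsf8, Pim2 and Ccnd2 did not pass, at -0.12 to 0.43.

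Among 35 transcription factors linked to T cell activation 6 rose and 5 fell, with a median of 0.00. Besides Nfil3, Egr2 rose by 1.29, the AP-1 subunit Jun by 1.02, and Batf, the AP-1 partner that IL-4 production in T cells needs, by 0.77 (SE 0.07, adjusted p = 1.10e-06). Batf3 rose by 0.75. Id3, an inhibitor of E proteins that marks resting T cells, fell by 0.90. Of 13 lineage factors 2 rose, Eomes (0.79) and Runx1 (0.51), and 1 fell, Stat4 (-0.35), which transmits IL-12 signals. Gata3, the master regulator of Th2 cells, stood at 0.19 and Tbx21, that of Th1 cells, at 0.36, both without passing. Stat5a was at 0.98 (adjusted p = 0.0559), with ACN wells spread from 5.42 to 7.56 and media-only wells from 5.05 to 6.48. Of 22 cytokine receptor genes 5 rose and 2 fell. Il1r2, the IL-1 decoy receptor, rose by 1.20, Il2rb, the beta chain of the IL-2 receptor, by 1.03 and Il12rb1 by 0.84, while the IL-6 receptor Il6ra fell by 0.91.

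Of 15 T cell identity genes 5 were called lower and 1 higher with ACN, with a median of -0.36. Cd5, which restrains antigen receptor signals, stood at 6.97 to 7.82 in ACN wells and 7.88 to 8.43 in media-only wells (log2 difference -0.81, adjusted p = 1.64e-04). Cd3d, a chain of the T cell receptor complex, fell by 0.65, Lat by 0.69, Cd6 by 0.62 and Cd2 by 0.44, and Cd8a rose by 0.47 (adjusted p = 9.93e-04). Cd3e was at -1.08 but missed the test (adjusted p = 0.134), with ACN wells between 5.88 and 8.83. Cd4 stood at -0.03, Thy1 at -0.03 and Zap70 at -0.21. Of 22 genes of naive and quiescent lymphocytes 7 fell and 0 rose (median -0.31). The largest falls were those of S1pr1, the receptor with which lymphocytes leave lymphoid tissue (-1.09), Dapl1 (medians 5.25 with ACN and 6.41 in medium), the glucose uptake inhibitor Txnip (-0.94) and the naive T cell factor Lef1 (-0.70).

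Costimulatory and checkpoint genes were split, with 6 called higher and 5 lower of 31 and a median of -0.01. Icosl, the ligand of ICOS on B cells and other APCs, fell to 6.71, 6.95 and 7.10 with ACN, against 8.47, 8.72 and 8.91 in medium, a 3.35-fold difference (adjusted p = 1.18e-10 from limma). The inhibitory receptor Btla fell by 1.13 and the costimulatory receptor Cd28 by 0.93. Pdcd1lg2, which encodes PD-L2, rose by 0.74, the activation marker Tnfrsf9 (4-1BB) by 0.50 and Cd274 (PD-L1) by 0.47. For Btla, Cd28 and Icosl all 8 ACN wells lay below every media-only well.

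Of 47 genes of cell division 22 rose and 1 fell, with a median of 0.43, beside -0.0047 over all probes and 4.49% of all genes called higher. Cdca8, a chromosomal passenger subunit, was at 6.75, 7.03 and 7.21 with ACN and 6.04, 6.28 and 6.46 in medium (1.71-fold, adjusted p = 1.12e-05). Topoisomerase Top2a rose 1.68-fold, cyclin Ccne1 1.66-fold, the transcription factor E2f1 1.63-fold, thymidine kinase Tk1 1.58-fold and cyclin Ccna2 1.57-fold. Cenpa, a centromeric histone named after its value was seen, was the member that fell (-0.36). Cdc45 was at 1.03 without passing, with 1 ACN well, replicate 7, at 11.70, and stood at 0.19 without that well. Of 14 cell cycle inhibitors 1 rose and 3 fell. Cdkn1b, which encodes p27 and holds resting lymphocytes out of the cycle, fell by 0.89, and Ccng2 and Rb1 fell by 0.53 and 0.22 (the call of Rb1 was lost under 11 of 25 alternatives), whereas Gadd45g, a stress gene that IL-2 induces in T cells, rose to 10.28, 10.82 and 11.03 with ACN, against 7.81, 8.75 and 9.05 in medium (4.64-fold, adjusted p = 4.45e-07).

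In ribosome biogenesis and polyamine synthesis 14 of 27 genes rose and 0 fell (median 0.40), led by spermidine synthase Srm (0.82), Rrs1 (0.74), Pes1 (0.68) and Rrp9 (0.68). Nolc1 lay at 0.86 but missed the test, as its media-only wells ran from 6.13 to 8.01. In nucleotide and one-carbon synthesis 11 of 23 rose and 0 fell (median 0.38), including the folate enzymes Mthfd1 (0.80) and Shmt2 (0.72), the serine enzyme Psat1 (0.70) and the purine enzyme Gart (0.67). Of 30 genes of amino acid transport and tRNA charging 8 rose and 0 fell, among them Wars (0.70), Nars (0.67) and the leucine transporter subunit Slc7a5 (0.59).

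Of 20 genes of sterol synthesis and uptake 13 rose and 0 fell (median 0.54). Fdps, which makes farnesyl diphosphate, was at 9.04, 9.60 and 9.92 with ACN and 8.07, 8.29 and 8.57 in medium (2.39-fold, SE 0.11, adjusted p = 1.51e-06 from limma). Squalene epoxidase Sqle rose by 0.97, isopentenyl isomerase Idi1 by 0.76, Lss by 0.73, squalene synthase Fdft1 by 0.72 and Msmo1 by 0.71. In fatty acid synthesis only the desaturase Scd2 (0.99) and the acetyl-CoA carboxylase Acaca rose of 15, and the list's median was 0.00. Acaca had 4 probes, of which 1 was called.

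Of 19 genes by which macrophages store and export lipid 12 fell and 1 rose, with a median of -0.70. Apoe, the apolipoprotein that carries cholesterol away from macrophages, had the largest fall of all genes. Its values were 8.14, 8.36 and 8.67 in ACN wells and 10.49, 10.65 and 10.89 in media-only wells, a 4.84-fold difference (SE of the log2 difference 0.09, adjusted p = 3.28e-11 from limma). Gpnmb, a glycoprotein of lipid-laden macrophages, fell 3.88-fold, to 5.42, 5.60 and 5.85 with ACN, against 7.31, 7.44 and 8.12 in medium. The lipid droplet protein Plin2 fell by 1.15, the lipid receptor Trem2 by 1.08, the scavenger receptor Cd36 by 1.00 and the lectin Lgals3 decreased by 0.82, and groups were separate in all of these but Lgals3, where 7 of 8 ACN wells lay below the media-only wells. Pltp, a phospholipid transfer protein, was the member that rose (1.25, adjusted p = 1.91e-04). Of 27 lysosomal genes 10 fell and 0 rose (median -0.18), led by the acid lipase Lipa (-1.09), cathepsin D, Ctsd (-0.98), and the saposin precursor Psap (-0.71). Of the 8 fixed macrophage markers 0 rose and 2 fell, where 4.22% of all genes fell, and the others were not called (median -0.15). Their mean level was 5.37 to 5.68 in ACN wells and 5.58 to 5.86 in media-only wells, so the ranges overlapped. Their part in the falls of lipid and lysosomal genes was not tested. C1qb and Mertk were below the array median.

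The unfolded protein response adjusts the folding capacity of the endoplasmic reticulum (ER) to the secretory load. Of its 26 members 11 rose and 0 fell (median 0.41). Xbp1, its transcription factor, was at 10.86, 10.88 and 11.40 with ACN and 9.43, 9.66 and 9.82 in medium (2.52-fold, SE 0.08, adjusted p = 1.99e-08 from limma). Sdf2l1 rose by 1.07, the disulfide isomerase Pdia6 by 0.91, the calcium-binding chaperone Calr by 0.79, the secreted ER factor Manf by 0.78 and Pdia3 by 0.69. Hspa5, the chaperone BiP, rose by 0.64, at 11.03 to 11.69 in ACN wells and 10.48 to 11.01 in media-only wells. Hyou1 stood 2.46-fold higher by its mean and missed the test, with a median of 4.98 in ACN wells and 4.96 in media-only wells and 1 ACN well at 14.40.

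Promoters of this list were searched for the ER stress element (CCAAT and CCACG with 9 bases between them, on both strands), the element through which ER stress is known to raise chaperone genes and which was defined from such genes. In the 250 bases before the gene start (RefSeq, GRCm38.p6) it was found in 9 of the 21 members with a promoter entry, or 42.9%. Of all 27025 genes with such an entry 0.13% held it. A gene was counted if any of its entries held the element. Of these 9 members 4 were called higher and 5 were not called, at 0.09 to 0.48. Printed 5′ to 3′ on the gene's strand, with the element in capitals, are the 3 members called higher with the largest rises that hold it, Pdia6 (chr12:17266339-17266588 on the plus strand), Calr (chr8:84846932-84847181 on the minus strand) and Hspa5 (chr2:34771840-34772089 on the plus strand).
Pdia6: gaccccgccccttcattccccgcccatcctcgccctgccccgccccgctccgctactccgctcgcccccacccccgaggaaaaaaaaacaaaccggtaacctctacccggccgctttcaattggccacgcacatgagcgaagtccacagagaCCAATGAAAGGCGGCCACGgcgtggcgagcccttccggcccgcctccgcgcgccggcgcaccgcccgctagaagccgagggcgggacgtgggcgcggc
Calr: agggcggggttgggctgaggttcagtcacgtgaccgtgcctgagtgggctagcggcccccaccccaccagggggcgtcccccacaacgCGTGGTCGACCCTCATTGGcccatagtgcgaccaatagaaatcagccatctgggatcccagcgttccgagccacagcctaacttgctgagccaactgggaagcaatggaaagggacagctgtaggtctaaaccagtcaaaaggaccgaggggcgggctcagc
Hspa5: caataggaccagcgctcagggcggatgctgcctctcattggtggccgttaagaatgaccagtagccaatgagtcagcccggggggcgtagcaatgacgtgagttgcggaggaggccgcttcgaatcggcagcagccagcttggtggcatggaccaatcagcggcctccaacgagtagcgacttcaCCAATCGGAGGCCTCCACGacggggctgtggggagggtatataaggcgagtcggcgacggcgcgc
The element lies on the gene's strand in Pdia6 and Hspa5 and on the opposite strand in Calr. A match describes these letters and not the binding of a factor. Motifs of 5 other lists were searched in the same window. The E2F site TTTCGCGC was in 4 of 37 cell cycle genes (10.8%, against 0.3% of all genes with a promoter entry). The STAT site TTCNNNGAA was in 3 of 13 of the STAT5 feedback genes (23.1% against 8.13%) and the SREBP site TCACNCCAC in 1 of 16 of sterol synthesis (6.25% against 1.23%). The E-box CACGTG, which MYC is known to bind, was in 2 of 21 of ribosome biogenesis (9.52% against 6.86%). The CLEAR element, an E-box with fixed flanks, was in 0 of 23 lysosomal genes (0.27% of all genes with an entry).

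Of 20 proteasome subunits 6 rose and 0 fell (median 0.32), with Psmd14 at 0.64 and Psmc4 at 0.63. Of 18 chaperones of the cytosol and mitochondria 7 rose and 0 fell (median 0.45), with the chaperonin subunits Cct3 at 0.77 and Tcp1 at 0.59. In oxidative phosphorylation 5 of 19 rose (median 0.26), led by Cox5a (0.67) and Uqcrc1 (0.54). In glycolysis 2 of 23 rose and 1 fell (median 0.25). There Ldha rose by 0.44, with the call lost under 14 of 25 alternatives, and the hypoxia gene Bnip3 by 0.25, with the call lost under 2 of 25. The regulator Pfkfb3 fell by 0.77. Of 14 genes of the pentose phosphate path and redox control 0 rose and 1, Srxn1, fell (-0.53). Genes often used as references were not level, with a median of 0.18 over 14 and Rplp0 and Tfrc called higher (0.41 and 0.27). The value of Tfrc is a mean over 12 spots, some of which may belong to another probe.

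Of 31 markers of monocytes and macrophages 10 fell, 1 rose and 20 were not called, with a median of -0.17 (-0.11 without media-only replicate 4). Cd93, a phagocyte surface protein, stood at 6.49, 6.64 and 7.15 with ACN and at 8.06, 8.32 and 8.51 in medium (3.12-fold lower, adjusted p = 7.90e-09 from limma). Mpeg1, the pore protein perforin-2, fell 2.54-fold, with 1 of its 2 probes called, lysozyme Lyz1 2.35-fold, Aif1 2.15-fold and the Fc receptor Fcgr1 1.83-fold. Clec4e, a receptor for mycobacterial lipid named after its value was seen, was the marker that rose (0.70). Markers that missed the test included Cd163 (0.17), Cd14 (0.27), C1qa (0.01) and Itgam (-0.17).

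STAT6 switches on genes of alternative activation in macrophages. Of 24 members of that list 10 rose and 1 fell (median 0.27). Chil3, a chitinase-like secreted protein also called Ym1, was at 7.87, 8.26 and 8.48 with ACN and 5.88, 6.47 and 6.79 in medium (3.37-fold, adjusted p = 1.01e-07 from limma). Retnla, also called Fizz1, was at 6.11, 6.39 and 6.66 with ACN and 4.66, 4.82 and 5.25 in medium (2.88-fold, adjusted p = 4.71e-08). Arg1, the arginase that marks such macrophages in mice, rose 1.81-fold, at 9.14 to 9.65 with ACN and 7.69 to 8.96 in medium. In all 3 genes the groups did not overlap. Egr2, the oxysterol enzyme Ch25h and Ccl17 rose by 1.29, 1.25 and 1.13. Egr2 and Ccl17 were also counted in the lists of transcription factors and chemokine ligands above. Which cells of the mixed lysate held these transcripts was not tested. Flt1 fell (-0.72), and the lectin Clec10a was at -0.82 without passing.

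Inflammatory mediators showed little change as a list (3 higher and 1 lower of 27, median 0.00). Il6, a cytokine of APCs and T cells, rose 2.12-fold, at 6.44, 6.55 and 7.06 with ACN and 5.02, 5.58 and 5.94 in medium (adjusted p = 1.08e-05). Acod1, the itaconate enzyme, and Il1b rose by 0.31 and 0.23 and the receptor Tlr2 fell by 0.51. Nos2, Ptgs2, Il12b and Il1a were at 0.12, -0.04, -0.10 and -0.15.

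Genes of other splenocytes went in both directions. Of 19 B cell markers 3 rose and 3 fell (median -0.24). Fcrla, an Fc receptor-like protein of germinal centre B cells, fell to 7.45, 7.76 and 8.02 with ACN, against 9.54, 9.73 and 9.90 in medium (3.88-fold, adjusted p = 1.18e-10 from limma), Fcrl1 fell by 0.97 and Cd72 by 0.76. Ms4a1 (CD20) rose by 0.93 with ACN wells between 10.46 and 12.12 and media-only wells between 10.18 and 10.73, the coactivator Pou2af1 by 0.83 and the low-affinity IgE receptor Fcer2a, which IL-4 induces, by 0.71. ACN replicate 4 had the lowest median over the B cell markers of all ACN wells, at -0.67 from the media-only mean, where the other 7 wells lay between -0.35 and 0.06. Of 9 plasma cell genes Jchain (-0.81) and Sdc1 (-0.49) fell, and Xbp1, which is also in that list, rose. Of 20 dendritic cell markers 5 rose and 2 fell, with the maturation marker Cd83 at 1.17 (11.38 to 12.12 with ACN and 10.19 to 10.96 in medium). Of 19 neutrophil genes 0 rose and 3 fell, S100a9 at -0.66, Retnlg at -0.54 and Mmp8 at -0.46, where 4.22% of all genes fell. The calls of S100a9 and Mmp8 were lost under 11 and 13 of 25 alternatives. Of 14 NK cell receptor genes and cofactors Tyrobp, an adaptor that myeloid cells share, fell by 0.86 and Eomes rose. Of 18 complement and Fc receptor genes 4 fell and 0 rose, among them Cd55, which protects cells from complement (-1.04). None of 12 stromal and endothelial genes passed, at -0.32 to 0.09, and 2 of them had an unadjusted p under 0.05 (limma).

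In the type I interferon list, 13 of 33 members were called lower and 1 higher, with a median of -0.34. Ifit3, an antiviral protein, was at 6.97, 7.11 and 7.29 with ACN and 7.78, 8.11 and 8.53 in medium (2.02-fold lower, SE of the log2 difference 0.10, adjusted p = 4.42e-06 from limma). The oligoadenylate synthetase-like genes Oasl1 and Oasl2 fell by 0.95 and 0.72, and the DNA sensor family members Ifi204 and Ifi203 by 0.94 and 0.80. Ifi203 had 4 probes, of which 3 were called lower, and it shares sequence with neighbouring genes of its family. Zbp1, a nucleic acid sensor named after its value was seen, was the member that rose (0.43). Isg15, Mx1 and Ifit1 missed the test at -0.45, -0.56 and -0.15.

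Promoters of this list were searched in the same way for the interferon-stimulated response element (GAAA repeated after 2 bases, on both strands), which interferon regulatory factors are known to bind. It was found in 11 of 24 members with an entry, or 45.8%, and in 3.46% of all genes with an entry. Of these 11 members 3 were called lower and 8 were not called, at -0.49 to 0.02. Shown are the members called lower with the largest falls that hold it, Ifit3 (chr19:34583279-34583528 on the plus strand) and Ifi203 (chr1:173942493-173942742 on the minus strand), with the element in capitals.
Ifit3: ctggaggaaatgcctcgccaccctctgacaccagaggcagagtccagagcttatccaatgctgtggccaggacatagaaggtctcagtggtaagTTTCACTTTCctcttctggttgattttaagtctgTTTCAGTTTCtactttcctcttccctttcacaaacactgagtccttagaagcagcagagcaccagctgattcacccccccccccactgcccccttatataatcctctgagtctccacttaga
Ifi203: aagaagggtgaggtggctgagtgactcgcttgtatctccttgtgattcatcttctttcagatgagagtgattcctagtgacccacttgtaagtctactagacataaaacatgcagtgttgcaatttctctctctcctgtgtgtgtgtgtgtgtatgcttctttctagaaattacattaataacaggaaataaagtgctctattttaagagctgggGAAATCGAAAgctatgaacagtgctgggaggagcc
Ifit3 holds 2 copies, both on the opposite strand, and Ifi203 holds 1 on its own strand.

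Of 17 interferon-inducible GTPases, which respond mainly to interferon gamma, 6 rose and 1 fell. Their median was 0.20 and depended on single wells, at 0.34 without ACN replicate 7, 0.13 and 0.12 without ACN replicates 3 and 4, and 0.13 without media-only replicate 4. Gbp11 was at 7.29, 7.38 and 7.86 with ACN and 5.13, 5.71 and 6.01 in medium (3.58-fold, adjusted p = 4.21e-08 from limma), Gbp2 rose 2.14-fold and Gbp7 1.79-fold, and Gvin1 fell (-0.51). Gbp genes are near-identical copies of each other, so their probes may share signal. Of 11 MHC class II genes 2 rose and 3 fell (median 0.37). H2-DMb2 and H2-Ab1 rose by 0.87 and 0.47, and H2-Ob, H2-Oa and H2-Eb2 fell by 0.78, 0.49 and 0.39, with the calls of H2-Ob and H2-Oa lost under 16 and 10 of 25 alternatives. H2-Aa was at 1.00 (adjusted p = 0.199), with ACN wells from 6.39 to 8.85. In MHC class I and peptide loading 1 of 19 members was called. That was Cd1d1, which presents lipids to NKT cells, at 6.99, 7.15 and 7.45 with ACN and 7.77, 8.29 and 8.36 in medium (log2 difference -1.03, both of its 2 probes called lower).

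**Figure D3:**
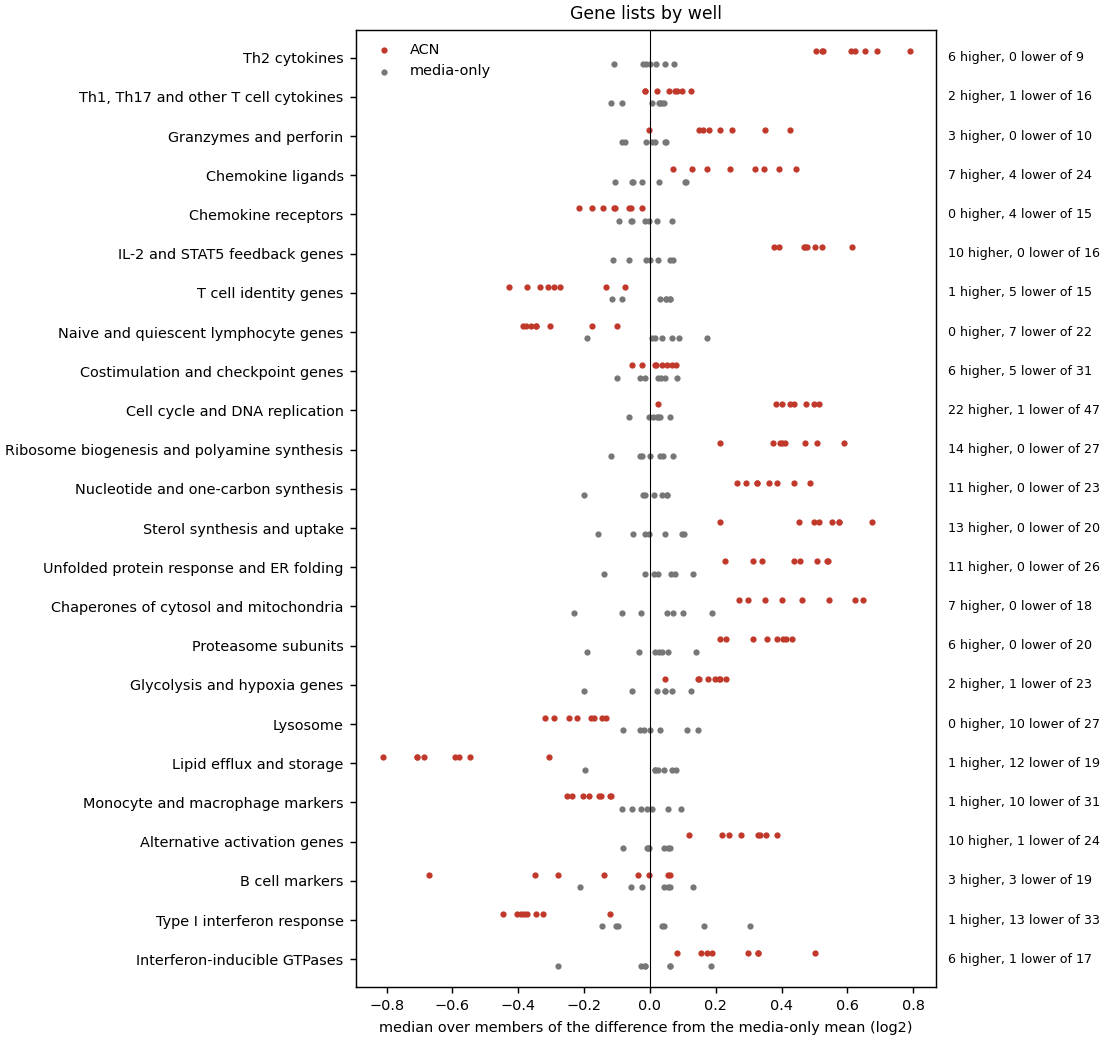
Median log2 difference from the mean of the media-only wells over the members of 24 gene lists (x axis, log2), in each ACN well (red points, n = 8) and each media-only well (grey points, n = 7), with the red row above the grey row for each list. Numbers at the right give members called higher and lower of those measured; all 8 ACN wells lie above the media-only wells for Th2 cytokines and below them for lipid efflux and storage.

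Some of the largest changes lay outside these lists. Klhdc2, a substrate receptor of a ubiquitin ligase, was at 8.60, 9.11 and 9.27 with ACN and 5.66, 6.15 and 6.53 in medium (7.87-fold, adjusted p = 3.31e-10 from limma). Penk, the precursor of the enkephalins, was at 11.54, 11.74 and 11.77 with ACN and 8.53, 8.90 and 9.08 in medium (7.32-fold, SE 0.08, adjusted p = 1.96e-13). St7 rose 7.26-fold, Prag1, a pseudokinase scaffold with both of its 2 probes called, 4.13-fold, Il4i1, an amino acid oxidase that IL-4 induces in B cells, 3.90-fold, Pla2g12a, a secreted phospholipase, 3.72-fold and Slpi, a secreted inhibitor of neutrophil elastase, 3.64-fold. All 8 ACN wells lay above every media-only well for each of these 7 genes.

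Falls outside the lists were largest for Ramp3, a partner of peptide hormone receptors, at 5.52, 7.76 and 8.54 with ACN and 9.05, 9.70 and 10.07 in medium (4.78-fold lower, SE of the log2 difference 0.34, adjusted p = 4.31e-04 from limma). Its ACN wells were widely spread. Hal, which degrades histidine, fell 3.52-fold, Smpdl3a, a nucleotide phosphodiesterase of macrophages, 2.93-fold, Dok3, an adaptor that restrains B cell and macrophage receptors, 2.90-fold, and Crisp3 2.89-fold. The leukotriene hydroxylase Cyp4f18 fell 2.87-fold, Jhy 2.82-fold, the B cell and neutrophil antigen Cd24a 2.75-fold, the exchange factor Arhgef3 2.71-fold, the platelet-activating factor hydrolase Pla2g7 2.63-fold, Ly6d, a B lineage antigen, 2.60-fold, Pde2a 2.52-fold and the peptidase Dpp4 2.47-fold. The groups were separate in these 13 genes apart from Ly6d, where 7 of 8 ACN wells lay below every media-only well. For Dok3 the spread was wide, with ACN wells from 5.59 to 7.80, and for Dpp4 1 media-only well read 8.36 where the median was 6.50.

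The question of how far ACN and GA differ in the same cells was taken from direct comparisons at the same dose and time, in which the media-only wells play no part. ACN and Copaxone differed in 44 probes, 28 higher and 16 lower with ACN (0.112% of probes tested, 0.071% and 0.0406% by direction, limma, adjusted p under 0.05), and 3158 differed at an unadjusted p under 0.05. ACN and Glatopa differed in 268 (0.68%), 195 higher (0.495%) and 73 lower (0.185%), and 4217 at an unadjusted p. Of the 44 probes 25 were also called between ACN and medium, and of the 268 probes 116 were. For 87.5% of all probes the 95% interval around the ACN minus Copaxone difference kept within 1.3-fold in either direction, and for Glatopa the share was 88.5%. Among probes called between ACN and medium these shares were 73.5% and 77.1%. Both comparisons use the same ACN wells, which came from 1 lot, so ACN and its lot cannot be told apart. The counts depended on single wells. Without ACN replicate 4, 5 probes differed from Copaxone and 92 from Glatopa, and without ACN replicate 2, 7 and 197. Both Copaxone counts are below the 11 genes named here as called against Copaxone, so not all of those calls hold without these wells. Which of the genes named below kept their call against Copaxone or Glatopa in these runs was not examined.

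Among genes that ACN raised, several reached a lower level than with GA. Il3 had ACN wells at 7.65, 8.03 and 8.47, Copaxone wells at 8.40, 8.80 and 9.13 (of 17) and Glatopa wells at 8.56, 8.95 and 9.56 (of 16). The difference was -0.75 from Copaxone and -0.94 from Glatopa (95% intervals -0.95 to -0.55 and -1.16 to -0.71, adjusted p = 0.00177 and 2.19e-04), and all 8 ACN wells lay below every Glatopa well. Slpi differed by -0.68 and -0.75 (adjusted p = 0.0359 and 0.00146), with ACN replicate 4 at 9.77 where the median of the other ACN wells was 10.75. Il4 differed by -0.36 and -0.53 (adjusted p = 0.0342 and 3.10e-04), and ACN was below every Copaxone well in 5 of 8 wells and below every Glatopa well in 8 of 8. Ifng differed by -0.52 and -0.58 (adjusted p = 0.0359 and 0.00798). Pth, the gene of parathyroid hormone, which rose by 0.62 with ACN from dim values, differed by -0.44 and -0.42, and Ch25h by -0.30 and -0.29. Crtam, a receptor of activated T cells, stood at 0.00 between ACN and medium and differed by -0.42 from Copaxone and -0.45 from Glatopa.

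Other cytokines of the Th2 list did not pass against either form of GA. Il5 differed by -0.02 from Copaxone (95% interval -0.41 to 0.37) and by -0.19 from Glatopa (-0.48 to 0.10), and Il13 by -0.41 (-1.14 to 0.31) and -0.39 (-0.80 to 0.02). Gzma differed by -0.34 from Copaxone (-0.64 to -0.04, adjusted p = 0.528) and by -0.49 from Glatopa (-0.73 to -0.24, adjusted p = 0.0499), and Ccl1 by -0.34 (adjusted p = 0.361) and -0.44 (adjusted p = 0.0104). Against Glatopa the chemokines Xcl1 and Ccl3 were also lower with ACN (-0.58 and -1.26, adjusted p = 0.00700 and 0.0426), and Ccl3 had ACN wells from 4.87 to 7.42. Pdzk1ip1 and the transglutaminase Tgm2 were lower than with Glatopa by 0.55 and 0.49 on the log2 scale. Gbp11 was lower by 0.45 on the log2 scale (adjusted p = 0.0104) and, against Copaxone, stood at -0.18 (95% interval -0.68 to 0.33).

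Genes that ACN lowered were, in several cases, less lowered than with GA. Cd1d1 was 0.37 higher with ACN than with Copaxone and 0.32 higher than with Glatopa (95% intervals 0.26 to 0.49 and 0.18 to 0.46, adjusted p = 0.00756 and 0.0244). Clec4d, a C-type lectin of myeloid cells that fell by 0.77 against medium, differed by 0.50 from Copaxone (adjusted p = 0.0359) and 0.60 from Glatopa (adjusted p = 0.0616). Its ACN replicate 4 read 8.49 where the median of the other ACN wells was 7.62. Ppbp differed by 0.57 and 0.54, and Fabp3, which carries fatty acids in the cytosol, by 0.50 and 0.40. For Ppbp the highest ACN well was replicate 4, at 8.65. Apoe differed by 0.37 from Copaxone (0.20 to 0.55, adjusted p = 0.0844) and by 0.45 from Glatopa (0.30 to 0.60, adjusted p = 0.00275). Cxcl3, which ACN raised, was 0.39 higher with ACN than with Glatopa (adjusted p = 0.0175) and stood 0.36 above Copaxone (adjusted p = 0.332). For these genes the media-only wells enter neither value.

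**Figure D4:**
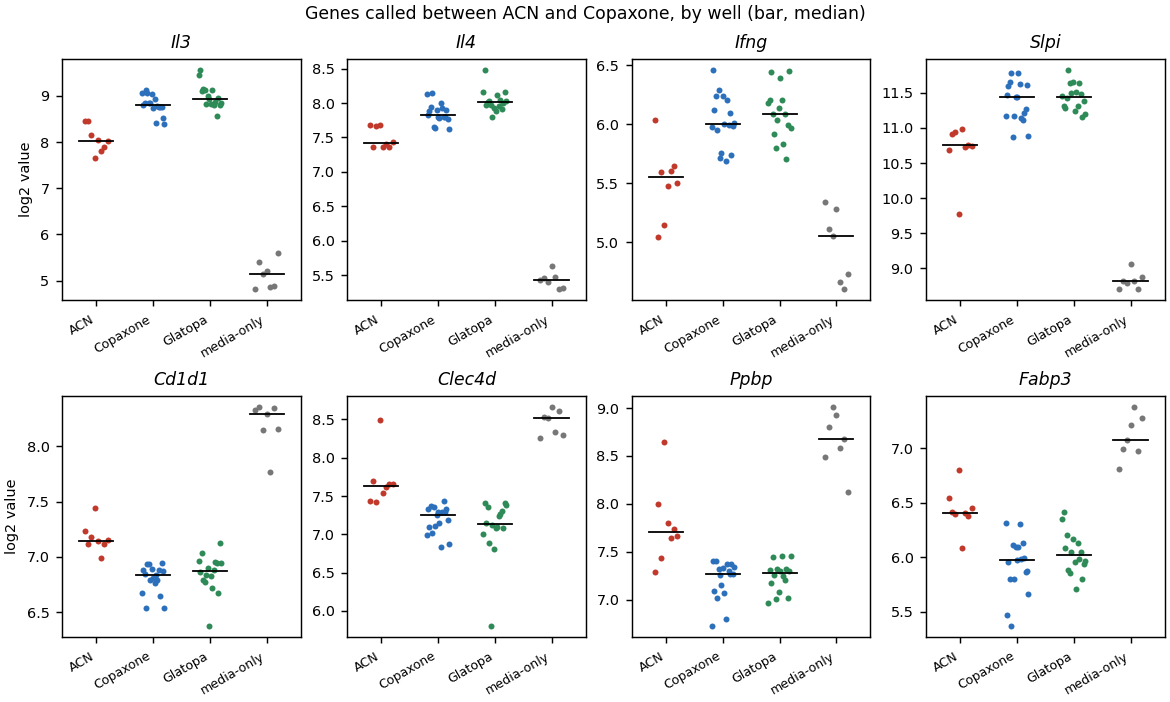
Log2 values by well of 8 of the 11 named genes that were called between ACN and Copaxone (Il3, Il4, Ifng, Slpi, Cd1d1, Clec4d, Ppbp and Fabp3), in ACN (red, n = 8), Copaxone (blue, n = 17), Glatopa (green, n = 16) and media-only wells (grey, n = 7), with a bar at each median. ACN lies between media-only control and both forms of GA in the medians of all 8 genes drawn. Crtam, Pth and Ch25h are not drawn, and Crtam was level between ACN and media-only wells.

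Differences over whole gene lists were small. For the Th2 cytokines the median difference of ACN was -0.17 from Copaxone and -0.19 from Glatopa, with 8 of 9 members below each. In sterol synthesis all 20 members lay below Copaxone and below Glatopa (medians -0.12 and -0.12), in ribosome biogenesis 26 and 24 of 27 (medians -0.12 and -0.15) and in the cell cycle 42 and 44 of 47 (medians -0.13 and -0.14), where 52.0% and 51.2% of all probes did so. The genes often used as references were shifted about as far, with 12 and 13 of 14 below Copaxone and Glatopa (medians -0.12 and -0.08). Of the members of the Th2 cytokine, sterol, ribosome and cell cycle lists, Il3 and Il4 passed against Copaxone. Against Glatopa Il3, Il4, Cdk1, Gins1, Ddx21 and Npm1 passed. ACN replicate 4 was the lowest ACN well in the sterol, ribosome and cell cycle medians against medium. List differences from GA were not computed without that well. Lipid efflux and storage genes lay above GA in 14 and 15 of 19 (medians 0.09 and 0.08). Median differences were somewhat smaller in the unfolded protein response (-0.07 and -0.07), where 18 and 19 of 26 members lay below Copaxone and Glatopa. In the type I interferon response they were 0.05 and 0.05, with 12 and 13 of 33 members below. Differences of whole lists from GA were not tested.

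Wells within the ACN group differed in how far they moved from medium. When the difference of each ACN well from the media-only mean was regressed on that of the other 7, the slope was 0.578 in replicate 4 and 0.726 to 0.957 in the others. ACN replicate 4 was the lowest ACN well in the medians of cell cycle genes (0.03, where the other 7 lay at 0.38 to 0.51), ribosome biogenesis (0.21 against 0.37 to 0.59), sterol synthesis (0.21 against 0.45 to 0.67) and the unfolded protein response (0.23 against 0.31 to 0.54), and the highest in lipid efflux and storage (-0.31 against -0.81 to -0.55). For the Th2 cytokines it stood at 0.65, within the range of 0.50 to 0.79 of the other wells. Without it 1690 probes were higher and 1488 lower. Media-only replicate 6 was the lowest media-only well in the medians of the same 6 lists, and without it 1388 probes were higher and 1463 lower.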

How the data were processed

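RNA from 48 wells was hybridised to single-dye Agilent mouse arrays. The deposited log2 values had been background-corrected (normexp) and quantile-normalized by the authors with limma, who also left out 2 arrays for quality. As quantile normalization gives all arrays 1 distribution, changes are relative to other probes. The 43020 spots were reduced to 39430 probes by averaging the 387 groups of 10 or more spots with the same symbol and accession. Groups of 11 or 12 spots, 94 in all, may hold spots of another probe. Symbols came from the platform annotation (29436 probes, 22485 symbols). Each comparison was fitted with limma 3.58.1 in R 4.3.3 (lmFit and eBayes on the 2 groups), with Benjamini-Hochberg adjustment over all probes and a threshold of 0.05. The fit against medium was tested on simulated data with independent normal values for each probe and well. These hold neither correlation between probes nor outlying wells, so the simulation does not cover either. Deposited values carry no scanner intensity, so no detection limit is given. A gene is represented by its probe with the highest mean over the ACN and media-only wells. Named genes were up to 20 rises and 20 falls, up to 6 called members of each of 44 lists, all members of short lists and part of the called differences from GA. Of genes with 1 probe each, 11 of the 24 called against Copaxone and 30 of the 166 called against Glatopa were named. Members and lists were chosen with earlier results of these data known. Alternatives were the methods' t-test, Bonferroni, a joint fit of all 4 groups, an intensity trend with a robust prior, cyclic loess, array weights, the replicate block, unaveraged spots, means per gene, a filter on dim probes, a 1.3-fold limit, leaving out each well and, chosen after seeing the data, leaving out both arrays that stood apart and, against GA, the lot as a random block with all ACN wells as 1 lot. Figures were drawn with matplotlib 3.10.9.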

Additional observations from a re-analysis of the deposited data

Results flagged for a closer look

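In the genes named above, each group of wells was searched for 1 well that lay far from the others (Dixon's ratio at its 95% limit). Of 488 groups of wells, 47 held such a well, 9.6%, where chance flags about 1 in 20. ACN replicate 4 was the outlying well in 13 of them and media-only replicate 6 in 12.

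In ACN replicate 4 the lowest values of the group were those of Cdk1 (5.09), Fdps (9.04), Prag1 (9.03), Sdf2l1 (6.87), Slpi (9.77), Tnf (5.23) and Wars (9.03), and the highest were those of Cd93 (7.15), Clec4d (8.49), Il6 (7.06), Slc7a5 (6.65), Smpdl3a (7.1) and Srxn1 (6.96). Among the other ACN wells, replicate 7 was highest for Cdc45 (11.7), Fasl (10.98) and Hal (6.3) and lowest for C1qa (4.82) and Pdcd1lg2 (6.16). Replicate 1 was highest for Hyou1 (14.4) and Idi1 (9.37), and replicate 2 was highest for Retnlg (5.51) and Xbp1 (11.4) and lowest for Ccr2 (4.97). Single low ACN wells were found for Nars (5.71), Penk (11.54) and Il1a (4.39).

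In media-only replicate 6 the lowest values were those of Batf (7.43), Cd8a (5.42), Dok3 (8.14), E2f1 (4.75), Gzma (5.3), H2-Ab1 (12.09), Pim2 (5.3), Pla2g12a (5.13), Smpdl3a (7.71) and Tbx21 (4.88), and the highest those of Mertk (5.66) and Retnlg (5.94). Other media-only wells were highest for Calr (10.01) and lowest for Ccne1 (6.69), Ccr6 (9.49), Cd1d1 (7.77), H2-Eb2 (6.06), Il2rb (5.81), Nos2 (4.48), Sqle (6.47) and Xcl1 (4.61).

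Named genes whose level with ACN differed from that with GA by the direct test (limma, adjusted p under 0.05) were flagged as well. They number 11 against Copaxone and 30 against Glatopa, of 24 and 166 such genes counted with 1 probe each. Over all probes most differences were higher with ACN, 28 higher and 16 lower against Copaxone and 195 and 73 against Glatopa. The named genes therefore do not show the balance over all probes. ACN was lower than Copaxone in Il3 (-0.75), Slpi (-0.68), Ifng (-0.52), Pth (-0.44), Crtam (-0.42), Il4 (-0.36) and Ch25h (-0.3), and higher in Ppbp (0.57), Clec4d (0.5), Fabp3 (0.5) and Cd1d1 (0.37), all as log2 differences. ACN was lower than Glatopa in Ccl3 (-1.26), Il3 (-0.94), Slpi (-0.75), Ifng (-0.58), Xcl1 (-0.58), Pdzk1ip1 (-0.55), Il4 (-0.53), Gzma (-0.49), Tgm2 (-0.49), Ddx21 (-0.46), Crtam (-0.45), Gbp11 (-0.45), Ccl1 (-0.44), Npm1 (-0.43), Pth (-0.42), Gzme (-0.4), Il12rb1 (-0.33), Cdk1 (-0.3), Ch25h (-0.29) and Gins1 (-0.29). It was higher than Glatopa in Ppbp (0.54), Apoe (0.45), Lyz1 (0.41), Fabp3 (0.4), Cxcl3 (0.39), Tyrobp (0.36), Cd1d1 (0.32), Cd93 (0.32), S1pr1 (0.31) and Smpdl3a (0.28).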

How the results depend on the processing

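Against medium, the counts of probes called stayed within 1.5 times 2793 (1470 higher and 1323 lower) under every alternative run except Bonferroni adjustment, which left 341, 159 higher and 182 lower. The filter on dim probes gave 3218 calls and means per gene 2035. Both tested fewer features than the main fit, so their counts are not shares of the same whole. Leaving out 1 well gave 2283 to 3178 called, 1184 to 1690 higher and 1099 to 1488 lower. Differences from GA depended more on the processing. The count against Copaxone was 44, 11 by the methods' t-test with Benjamini-Hochberg, 92 with all 4 groups in one fit and 5 to 55 without 1 ACN well. Against Glatopa it was 268, 141 by the methods' t-test, 178 with all 4 groups in one fit and 92 to 321 without 1 ACN well. The fewest calls in both came without ACN replicate 4, and the cause was not tested. With the lot as a random block 77 probes differed from Copaxone and 1202 from Glatopa, among them all 44 and all 268. The correlation within lots was -0.013 and -0.0482, and a negative value narrows the error of the ACN mean, so the smaller counts were kept. With the replicate number as a block, 1329 probes were higher and 1181 lower, but deviations of same-numbered wells correlated at only -0.04 to 0.09, so the numbers do not pair the wells. Of 195 named genes called against medium none changed direction under the alternatives run, and 28 lost the call under 1 or more of them, Ifng in 11 of 25, Ldha in 14 and H2-Ob in 16. Dim probes limit the comparison. Over probes above the median level only, the median of the Th2 cytokines was 2.21 in place of 0.62, as fewer members were tested. Of 1100 list medians 23 moved by more than the SD between ACN wells. For the monocyte and macrophage markers 6 settings moved it, to between -0.12 and -0.11 from -0.17, for fatty acid synthesis it was 0.08 without ACN replicate 3, and for the T helper lineage factors 0.05 in place of 0.15 with spots not averaged.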
